A study of Homo sapiens with 33 samples.

Results

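The nuclear-encoded subunits of the respiratory chain and of ATP synthase were followed in Karpas422 cells. Karpas422 is an established line from a patient's diffuse large B cell lymphoma, and the series title calls it EZH2 mutant. Members were taken by gene symbol (NDUFA, NDUFB, NDUFC, NDUFS, NDUFV, SDHA to SDHD, UQCR, COX4 to COX8 and ATP5), without pseudogenes and without the NDUFAF assembly factors. This gave 84 of the 19775 genes with a probe set of their own. Of these, 75 encode structural subunits, with 33 in complex I, 3 in complex II, 6 in complex III, 16 in complex IV and 17 in ATP synthase, also called complex V. The other 9 share the letters but encode no structural subunit and are described apart: 4 SDHAF assembly factors, the ATP synthase inhibitor ATP5IF1, the supercomplex factor COX7A2L and 3 long non-coding RNA genes named after a neighbouring subunit gene. SDHB and UQCRFS1 were not analysed here, and NDUFS5, NDUFS8, NDUFC2 and UQCRH lay on probe sets that the annotation gives to several genes.

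The cells were given EED226 at 5 µM or the solvent DMSO, and were taken at 8 h and at days 1, 2, 3 and 6. Cells at 0 h, whose treatment the labels do not state, completed 11 groups of 3 arrays, 33 in all. EED226 inhibits PRC2, the complex that methylates histone H3 at lysine 27, by binding its EED subunit. The design text writes of an inhibitor of EZH2, and EI1 appears in the protocol too, while the titles of all treated samples name EED226. The only cells are those of 1 line. The labels call the arrays biological triplicates without saying what was separate, so p-values measure the spread between these arrays, which may in part be technical.

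The chain is an assembly line of protein complexes in the inner mitochondrial membrane. Complex I takes electrons from NADH and complex II takes them from succinate. Both pass them through coenzyme Q to complex III, which hands them through cytochrome c to complex IV, where oxygen is reduced. Complexes I, III and IV pump protons as they do so, and ATP synthase uses the returning protons to make ATP. Most subunits are encoded in the nucleus and imported, while a core of hydrophobic subunits is encoded in mitochondrial DNA, so both genomes supply the same complexes. In B cells the demand on the chain rises when resting cells are activated, and some diffuse large B cell lymphomas depend strongly on oxidative phosphorylation.

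Promoters of such genes are known for sites of NRF1, of the ETS factors that include GABPA, and of YY1. RefSeq promoter windows on GRCh38.p14, from 250 bases before to 50 bases after the annotated start, were matched for 64 of the 75 subunits. The stretches below end at the start itself and are printed 5′ to 3′ on the gene's strand, with the searched letters in capitals. They were chosen to show the motifs in genes of different roles, which are subunits of the catalytic core of complex I, of an accessory part of complex I, of the ATP synthase stalk and of its c ring, where the last gene rose with EED226 and the others fell. In these lines GCATGCGC, or GCGCATGC on the other strand, is the NRF1 motif, CCGGAAG or CTTCCGG the ETS motif and AAGATGGC the YY1 motif.
NDUFS3, chr11:47578954-47579073, plus strand: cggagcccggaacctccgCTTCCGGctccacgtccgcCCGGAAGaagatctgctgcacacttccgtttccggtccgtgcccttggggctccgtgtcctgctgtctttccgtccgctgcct
NDUFS7, chr19:1383787-1383906, plus strand: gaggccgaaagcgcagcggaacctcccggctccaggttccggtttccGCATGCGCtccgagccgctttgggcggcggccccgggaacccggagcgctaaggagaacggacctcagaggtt
NDUFS6, chr5:1801287-1801406, plus strand: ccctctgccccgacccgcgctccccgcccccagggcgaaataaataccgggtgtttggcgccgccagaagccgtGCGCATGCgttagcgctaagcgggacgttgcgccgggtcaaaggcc
ATP5PF, chr21:25735055-25735174, minus strand: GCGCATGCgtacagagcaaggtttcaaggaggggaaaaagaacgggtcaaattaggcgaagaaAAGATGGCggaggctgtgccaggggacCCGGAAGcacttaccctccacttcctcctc
ATP5MC2, chr12:53676084-53676203, minus strand: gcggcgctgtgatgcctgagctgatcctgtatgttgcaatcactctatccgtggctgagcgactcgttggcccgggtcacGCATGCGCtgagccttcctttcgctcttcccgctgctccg

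In 2 of the genes with the largest falls, the YY1 letters lay just after the annotated start. The same letters lay after the start in genes with other log2 differences of EED226 minus DMSO at day 6. These were NDUFA9 (-0.47), NDUFS7 (-0.44), ATP5PO (-0.14), NDUFA7 (-0.0062), NDUFA3 (0.068) and NDUFS4 (0.12). Shorter stretches around the letters are given for NDUFA6 and UQCRC1, which were picked for their falls.
NDUFA6, chr22:42090729-42090758, minus strand: gatgctttggcAAGATGGCggggagcggcg
UQCRC1, chr3:48609605-48609634, minus strand: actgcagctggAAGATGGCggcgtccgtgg

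The searched letters were more frequent in the subunit windows than in the windows of all 15843 protein-coding genes. The NRF1 letters, which read partly the same on both strands, were in 12 of 64 subunit windows (18.8%), against 4.26% of all windows. The ETS letters were in 18 (28.1%), against 14.2%, and the YY1 letters in 10 (15.6%), against 3.91%. Both strands were searched. At day 6 the median log2 difference of EED226 minus DMSO was -0.22 with the NRF1 letters and -0.18 without, -0.15 with the ETS letters and -0.22 without, and -0.38 with the YY1 letters and -0.18 without. Genes with the NRF1 letters ran from -0.88 to 0.42, and those with the YY1 letters from -0.90 to 0.12. A match of letters is a description and no measured site.

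Most subunit probe sets were bright. Brightness also depends on the probes, so it does not rank transcripts by abundance. All levels are RMA values on the log2 scale as deposited, and all differences are EED226 minus DMSO, or DMSO minus 0 h, on that scale. The median subunit had a level of 11.6, against 5.03 for the median gene, and 62 of 75 lay in the brightest 10% of genes. On all 33 arrays 68 subunits were above the array median. The exceptions were the isoforms COX4I2, COX6A2, COX6B2, COX7A1, COX7B2 and COX8C, known from lung, muscle, testis or other restricted sites, and ATP5MF, whose only probe set of its own was dim.

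B cell markers were bright in these cells. The 6 measured markers averaged 10.2 to 10.4 on the EED226 arrays and 9.60 to 9.99 on the DMSO arrays at day 6, and 3 of the 6 passed the test as higher with EED226, among them CD79B and CD22. Of the markers of other cells, 4 of 7 for T and NK cells, 5 of 6 for myeloid cells and 3 of 7 for stroma and epithelium were below the array median on all EED226 arrays of day 6, while CD3D, CD3G and DCN were above it in both groups. Of the 6 myeloid markers, LYZ rose by 2.28 at day 6, while ITGAM and S100A8 fell by 0.50 and 0.47, and the median was -0.25. Within groups the correlation between arrays was 0.994 or higher, apart from the third DMSO array of day 6, which reached 0.986 and 0.987 with the other arrays of that group. The difference between 3′ and 5′ ACTB probe sets, which grows as RNA degrades, was 3.50, 4.07 and 4.14 on the EED226 day 6 arrays and 2.87, 3.26 and 3.29 on the DMSO day 6 arrays. The same difference for GAPDH was 0.52, 0.74 and 0.66 with EED226 and 0.24, 0.29 and 0.26 with DMSO. The part of the ACTB difference in the results was not tested beyond a fit with it as a covariate, given beside the counts it changes. In bulk RNA, less transcript per cell and fewer cells of one kind cannot be told apart.

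EED226 and DMSO were compared at each time with limma over all 19775 genes, and a gene that passed had a Benjamini-Hochberg adjusted p under 0.05. At 8 h and at day 1 none of the 75 subunits passed, against 0.0% and 0.87% of all genes, and 0 had an unadjusted p under 0.05. The differences lay between -0.08 and 0.17 at 8 h and between -0.26 and 0.11 at day 1. At day 2 only ATP5MC2 passed, as higher, against 6.76% of all genes higher and 2.68% lower, and with the replicate number as a block 2 subunits passed. At day 3, 3 subunits rose and 11 fell, or 14 of 75, against 22.9% of all genes (11.7% higher and 11.2% lower). At day 6, 7 rose and 43 fell, or 50 of 75, against 51.0% of all genes (23.7% higher and 27.3% lower).

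The median subunit difference was 0.01 at 8 h, 0.01 at day 1, -0.01 at day 2, -0.05 at day 3 and -0.20 at day 6. The median over all genes was -0.11 at day 6. On the linear scale the day 6 median stands for 87.2% of the DMSO value, so most falls were small: 11 of the 43 reached 0.5 and 0 reached 1. In each of these 43 genes the 3 EED226 values lay below the 3 DMSO values, and groups did not overlap in either direction for 50 subunits, against 51.7% of all genes. As the subunits are bright, they were also set beside the other 1914 genes of the brightest 10%. At day 3, 16.1% of 62 bright subunits fell and 3.23% rose, against 32.5% and 14.4% of the other bright genes. At day 6, 64.5% of the bright subunits fell and 8.06% rose, against 52.1% and 27.2%. The day 6 median of the bright subunits was -0.19, beside -0.18 for the other bright genes.

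**Figure D1:**
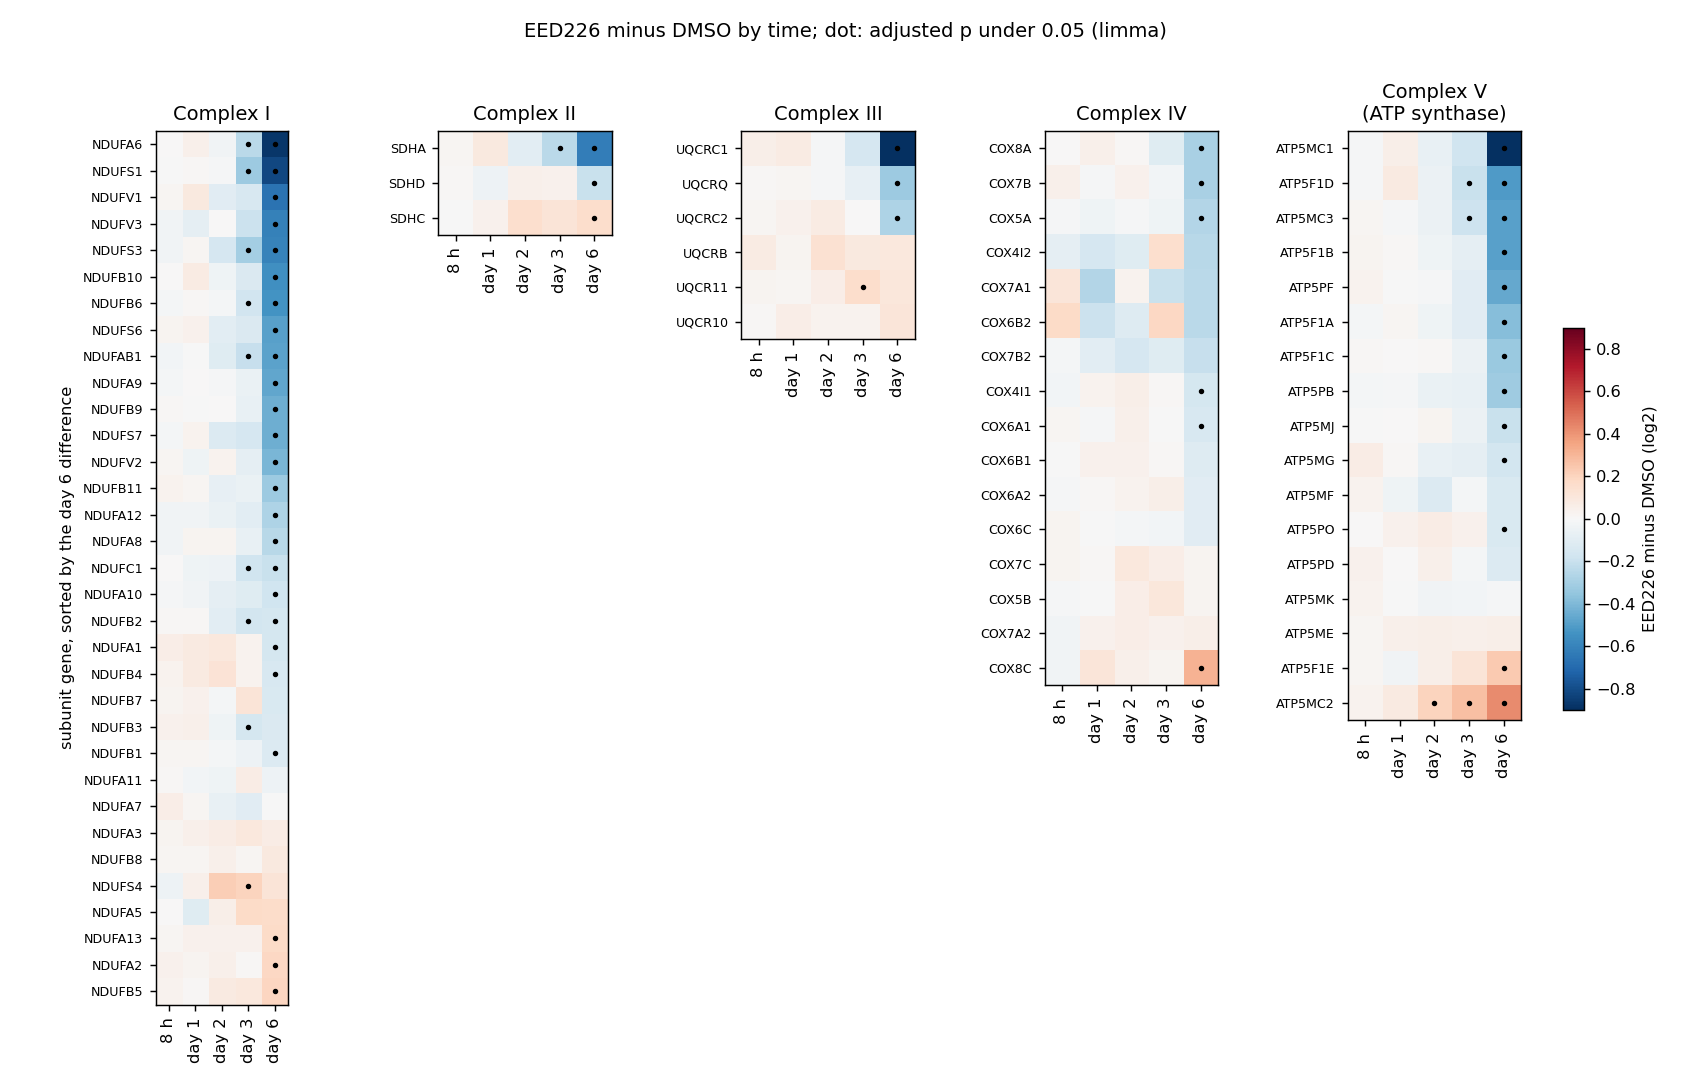
Difference of EED226 minus DMSO (log2, colour) of the 75 subunit genes by complex at 8 h and days 1, 2, 3 and 6, with blue for lower and red for higher with EED226. Dots mark an adjusted p under 0.05 (limma), which 1 subunit reached at day 2, 14 at day 3 and 50 at day 6.

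The EED226 day 6 arrays were not alike. The median subunit lay 0.34 below its 0 h mean on replicate 1, and 0.17 and 0.19 below on replicates 2 and 3. On the DMSO day 6 arrays it lay 0.06, 0.03 and 0.09 below. All EED226 arrays were thus lower than all DMSO arrays, with replicate 1 the lowest. Without EED226 replicate 1 the count was 35 lower and 11 higher with a median of -0.15, and without DMSO replicate 3, the array that stands apart, 42 lower and 3 higher. With the ACTB covariate 49 subunits were lower and 1 higher, so that the count of rises depended on it. With only the 6 arrays of day 6 in the fit, 27 were lower and 1 higher. That fit has few degrees of freedom and also takes the spread from these arrays alone. Which of these lowered the count was not tested.

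**Figure D2:**
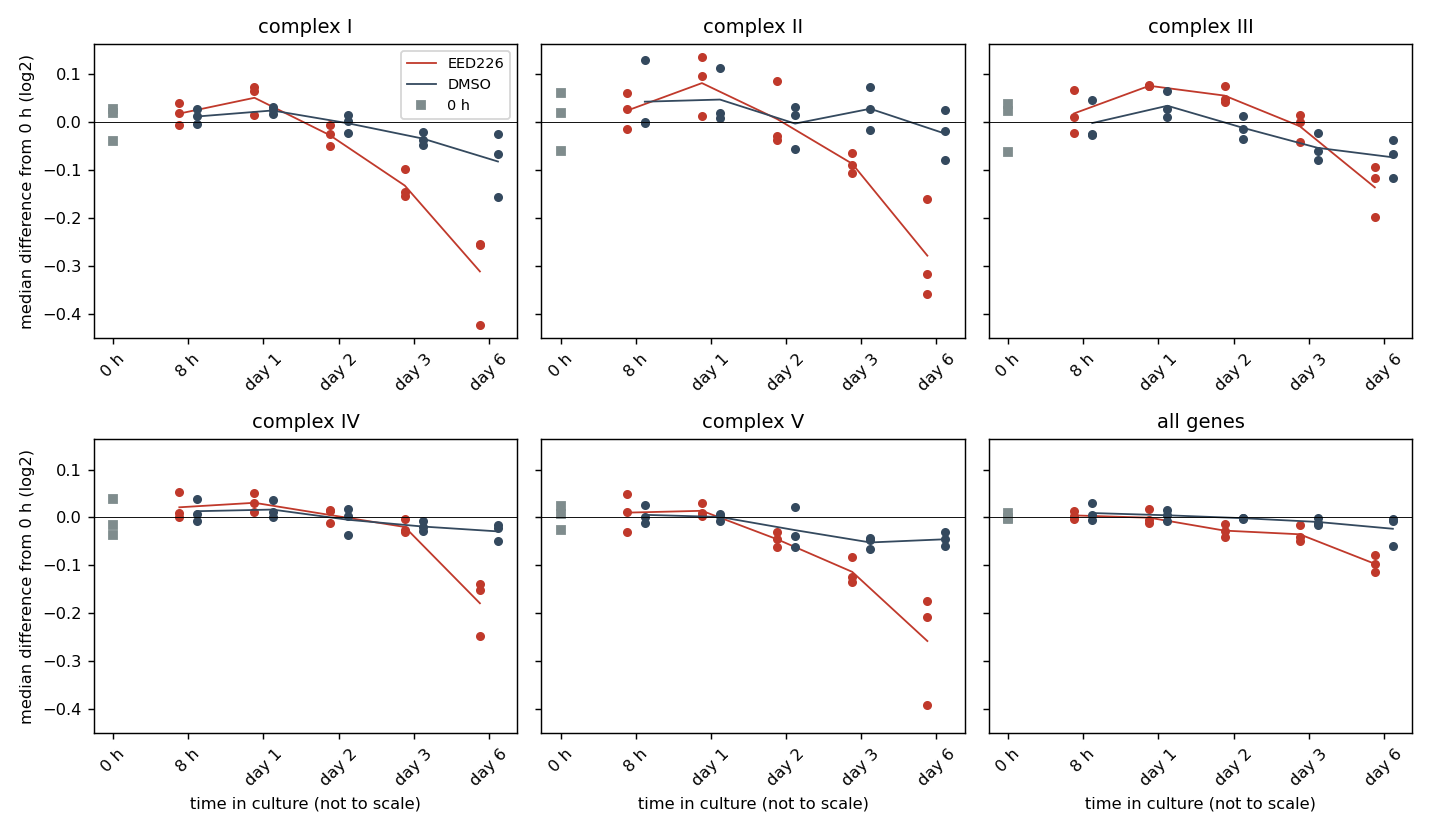
Median difference from the 0 h mean (log2) over the subunits of each complex, and over all genes, for each array (points) with group means joined by lines; the time axis is not to scale. At day 6 the 3 EED226 arrays of complex I lie at -0.42, -0.26 and -0.26, and the DMSO arrays at -0.07, -0.02 and -0.16.

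Complex I has the most members. Of its 33 measured subunits, 22 fell and 3 rose at day 6, with a median of -0.20. At that time 27.3% of all genes and 52.1% of other bright genes were lower, and 23.7% and 27.2% higher. The catalytic core, which binds NADH and carries the flavin and the iron-sulfur clusters, fell as a whole: 5 of 5 measured core subunits were lower, with a median of -0.60. Of the 28 accessory subunits, which surround and stabilise the core, 17 fell and 3 rose, with a median of -0.16. The core was not tested against the accessory subunits.

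NDUFS1, the largest subunit of the core and a carrier of iron-sulfur clusters, had levels of 9.46, 9.46 and 9.43 on the EED226 arrays and 10.36, 10.29 and 10.17 on the DMSO arrays at day 6. The groups were far apart, with a difference of -0.82 ± 0.07 (SE, n = 3) and an adjusted p of 3.41e-11 (limma). A second bright probe set of NDUFS1 gave -0.45. NDUFV1, which binds NADH and the flavin, had 9.14, 9.47 and 9.33 with EED226 and 9.99, 10.05 and 9.88 with DMSO, a difference of -0.66 ± 0.07. NDUFS3, an early-assembled core subunit, had 9.66, 9.96 and 9.94 with EED226 and 10.49, 10.48 and 10.38 with DMSO, a difference of -0.60 ± 0.07. For both, all EED226 arrays lay below all DMSO arrays, with replicate 1 lowest. A dimmer probe set of NDUFV1 gave -0.11 and did not pass (adjusted p = 0.452, limma over all probe sets). NDUFS7 and NDUFV2, which also carry iron-sulfur clusters, differed by -0.44 and -0.41.

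Among accessory subunits NDUFA6, an LYR-motif protein that binds the acyl carrier protein NDUFAB1, fell most. Its levels were 10.36, 10.28 and 10.49 with EED226 and 11.27, 11.30 and 11.19 with DMSO, a difference of -0.88 ± 0.06 and an adjusted p of 1.01e-12 (limma). On this probe set the EED226 values were lower by several times the spread within either group. A dimmer probe set of NDUFA6 gave a smaller difference, -0.39 (adjusted p = 0.00107, limma over all probe sets). NDUFAB1 itself differed by -0.48 ± 0.06. NDUFV3, at the tip of the matrix arm, fell by 0.61 ± 0.09, and its dimmer probe set gave -0.14 (adjusted p = 0.482 over all probe sets). NDUFB10 and NDUFB6, of the membrane arm, differed by -0.55 and -0.54.

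The rises in complex I were small. NDUFB5, a membrane arm subunit, had 11.33, 11.31 and 11.29 with EED226 and 11.11, 11.18 and 11.05 with DMSO, a difference of 0.20 ± 0.06 without overlap, which did not pass with the ACTB covariate (0.18). NDUFA2 and NDUFA13 passed as higher, by 0.19 and 0.17, with overlapping groups. The 8 subunits that did not pass lay between -0.14 for NDUFB7 and 0.17 for NDUFA5.

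Complex II, the succinate dehydrogenase that also works in the citric acid cycle, was split. SDHA, the flavoprotein that oxidises succinate, had 9.52, 9.50 and 9.52 with EED226 and 10.16, 10.18 and 10.07 with DMSO at day 6. The difference was -0.62 ± 0.07 (SE, n = 3; adjusted p = 1.34e-08, limma) with no overlap. SDHD, a membrane anchor, fell by 0.20 ± 0.07, and the call was lost with the mean of its probe sets (-0.060), without DMSO replicate 3 (-0.17) and without EED226 replicate 2 (-0.16). SDHC, the other anchor, passed as higher by 0.16 ± 0.06 with overlapping groups. This call was kept in 7 of 17 other settings. It was lost without either EED226 replicate 1 or 2 and without either DMSO replicate 1 or 3 (0.10 to 0.17), and with the probe sets of 1 transcript the difference was -0.031.

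In complex III 3 of 6 measured subunits fell and 0 rose at day 6, with a median of -0.090. Of all genes 27.3% were lower, and of other bright genes 52.1%. UQCRC1, a core protein of the matrix side, had 8.50, 8.59 and 8.62 with EED226 and 9.55, 9.53 and 9.34 with DMSO. The difference was -0.90 ± 0.08 (SE, n = 3) with an adjusted p of 2.20e-10 (limma), and the groups were far apart. UQCRC2, its partner, fell by 0.28 ± 0.05, and a second bright probe set gave -0.44. Its dim remaining probe set passed the other way, at 0.84 (adjusted p = 0.011 over all probe sets), and the mean of its probe sets gave 0.041. UQCRQ, a small subunit next to cytochrome b, fell by 0.32 ± 0.07. UQCRB, UQCR11 and UQCR10 had differences of 0.094, 0.10 and 0.11 and did not pass. A dimmer probe set of UQCR10 passed as higher, at 0.69 (adjusted p = 5.69e-06, limma over all probe sets). For UQCR11 the direction depended on the probe set: the dimmer one gave -0.59 (adjusted p = 7.75e-06 over all probe sets).

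CYC1, the cytochrome c1 of complex III, carries no symbol of the rule and was read as a listed gene. It had 9.75, 9.73 and 9.99 with EED226 and 10.81, 10.81 and 10.62 with DMSO, a difference of -0.92 ± 0.07, close in size to that of UQCRC1. CYCS, the soluble cytochrome c, differed by -0.14 ± 0.06 and also passed.

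Complex IV held no fall as large as those of SDHA or UQCRC1. Of its 10 commonly expressed subunits 5 fell and 0 rose at day 6, with a median of -0.13. The share that fell was close to the 52.1% of other bright genes, while 27.3% of all genes were lower. COX8A had 11.89, 11.92 and 12.08 with EED226 and 12.27, 12.26 and 12.24 with DMSO, a difference of -0.29 ± 0.06 without overlap. COX7B fell by 0.29 ± 0.06, COX5A by 0.26 ± 0.05, COX4I1 by 0.16 ± 0.05 and COX6A1 by 0.14 ± 0.05. COX6A1 lost its call without EED226 replicate 1 (-0.099), DMSO replicate 2 (-0.14) or DMSO replicate 3 (-0.14). COX7B had a difference of 0.16 and COX4I1 of -0.020 with the mean of their probe sets. COX6B1, at -0.11, and COX7A2, at 0.05, did not pass.

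The isoforms of complex IV with restricted expression stayed dim. Each is compared only with itself, as probe sets of different genes share no scale. COX4I2, the isoform known for its induction by low oxygen, had a mean level of 3.82 with EED226 and 4.08 with DMSO. COX6A2, COX6B2, COX7A1 and COX7B2 differed by -0.10, -0.24, -0.24 and -0.21, and none passed. COX8C passed as higher by 0.31 ± 0.12 at levels of 2.39, 2.92 and 2.44 with EED226 and 2.11, 2.43 and 2.28 with DMSO. The call was lost without EED226 replicate 2 and without DMSO replicate 1 or 3 (0.15 to 0.32). These groups overlapped and lay below the median of every array, where sizes are uncertain. NDUFA4, annotated as COXFA4 and now placed in complex IV, had a difference of 0.0032 and did not pass, and its paralog NDUFA4L2, annotated as COXFA4L2, was dim and fell by 0.59.

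In ATP synthase 11 of 17 subunits fell and 2 rose at day 6. Beside them, 27.3% of all genes and 52.1% of other bright genes were lower. The F1 head, where ATP is made, had 4 of 5 lower with a median of -0.38. ATP5F1D, the delta subunit of the central stalk, had 9.16, 9.32 and 9.29 with EED226 and 9.78, 9.87 and 9.65 with DMSO, a difference of -0.51 ± 0.06. ATP5F1B, the catalytic beta subunit, differed by -0.49 ± 0.06, ATP5F1A, the alpha subunit, by -0.38 and ATP5F1C, the gamma subunit, by -0.34. In all 4 the groups did not overlap. ATP5F1E, the epsilon subunit, passed as higher, with 12.89, 12.90 and 13.08 under EED226 and 12.68, 12.67 and 12.82 under DMSO, a difference of 0.24 ± 0.06. A dimmer probe set of ATP5F1C passed as higher, at 0.81. The dimmer probe set of ATP5F1E gave -1.24, so the 2 probe sets disagreed, and with the ACTB covariate the difference was 0.089 and did not pass.

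In the peripheral stalk, which holds the head still, ATP5PF fell by 0.46, ATP5PB by 0.32 and ATP5PO by 0.14, while ATP5PD, at -0.12, did not pass. A dim probe set of ATP5PB passed as higher, at 0.61. Of the other membrane subunits ATP5MJ and ATP5MG fell, by 0.20 and 0.17, and ATP5MG lost its call without EED226 replicate 1 (-0.091) or DMSO replicate 2 (-0.16).

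**Figure D3:**
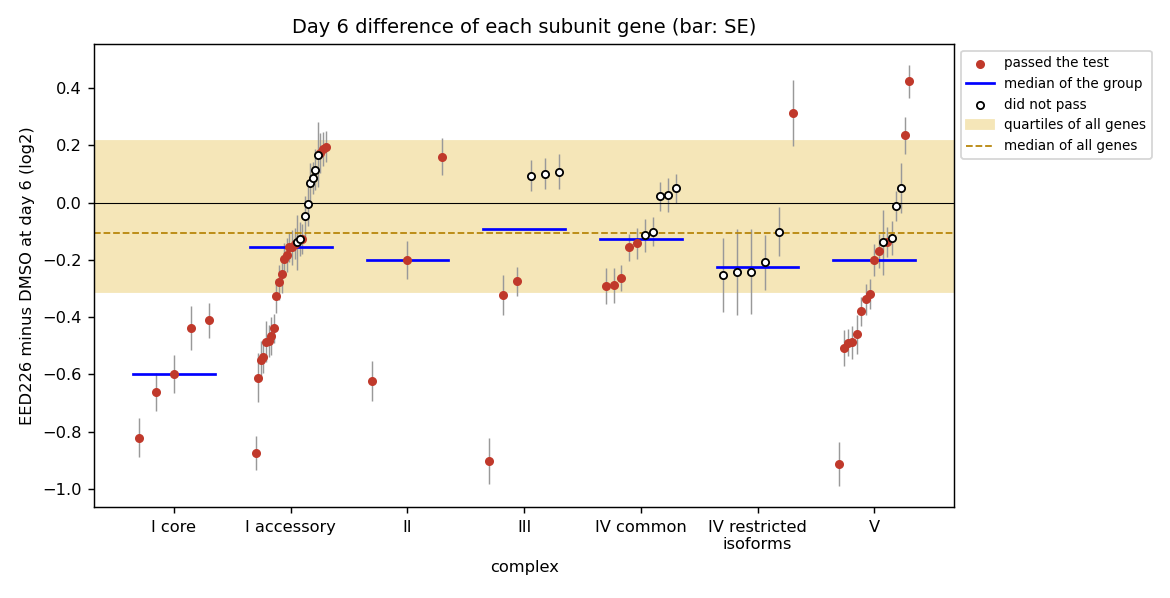
Difference of EED226 minus DMSO at day 6 (log2) of each subunit gene with its SE, by complex and role, with the median of each group as a blue line. The shaded band and the dashed line are the quartiles (-0.31 and 0.22) and the median (-0.11) of all genes; all 5 measured subunits of the complex I core lie below the band.

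The c ring showed the widest spread. Its subunit c is encoded by 3 genes, ATP5MC1, ATP5MC2 and ATP5MC3, which differ in the import sequence that is cut off, so that all give the same mature protein. ATP5MC1 had 10.61, 10.61 and 10.96 with EED226 and 11.61, 11.69 and 11.61 with DMSO at day 6, a difference of -0.91 ± 0.08 (SE, n = 3; adjusted p = 6.21e-11, limma). It was the largest fall among the subunits. ATP5MC3 had 12.35, 12.47 and 12.51 with EED226 and 12.93, 12.91 and 12.96 with DMSO, a difference of -0.49 ± 0.05. A second bright probe set gave -0.46, and a dim remaining one passed the other way, at 0.33.

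ATP5MC2 had 12.16, 12.38 and 12.24 with EED226 and 11.85, 11.91 and 11.76 with DMSO, a difference of 0.42 ± 0.06 (adjusted p = 3.54e-07, limma), the largest rise among the subunits. All its EED226 values lay above all DMSO values. It was also the first subunit to pass. Its EED226 mean was 11.82 at 8 h, 11.91 at day 1, 12.02 at day 2, 12.08 at day 3 and 12.26 at day 6, while its DMSO mean stayed between 11.79 and 11.84. The difference was 0.20 at day 2 and 0.27 at day 3. Its only other probe set, with a mean level of 3.13, gave -0.42 at day 6 and did not pass. The day 6 call was kept in 15 of 17 other settings. It was lost with the mean of both probe sets, and with the probe sets of 1 transcript the difference was -0.42.

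**Figure D4:**
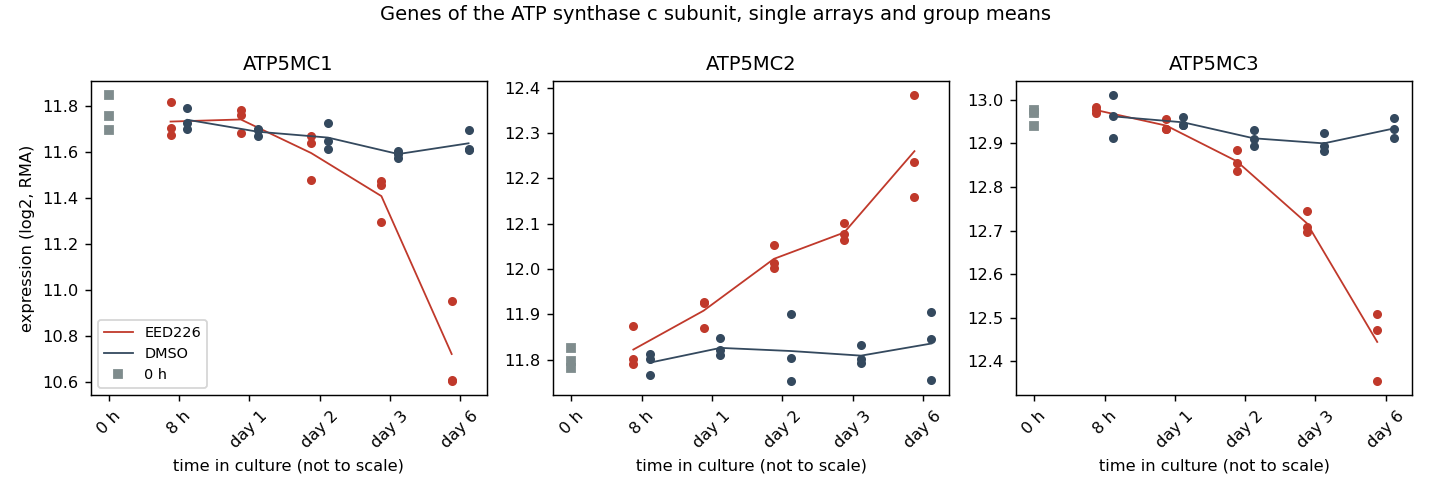
Levels (log2) of the genes of the ATP synthase c subunit on single arrays, with EED226 and DMSO means joined by lines and 0 h as squares; each panel has its own vertical scale and the time axis is not to scale. At day 6 ATP5MC1 and ATP5MC3 lie lower with EED226 than with DMSO, and ATP5MC2 lies higher.

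Some subunits had passed at day 3, where 16.1% of bright subunits and 32.5% of other bright genes fell. Of the 11 subunits that fell at day 3, 10 fell again at day 6. At day 6, 27.3% of all genes and 52.1% of other bright genes were lower. How many of all genes that fell at day 3 fell again was not computed. The exception among the subunits, NDUFB3, had -0.13 at day 6 and did not pass. The comparisons at both times use different arrays. NDUFA6 had 11.01, 11.12 and 11.03 with EED226 and 11.28, 11.32 and 11.30 with DMSO at day 3, a difference of -0.24 ± 0.06. NDUFS1 differed by -0.33, NDUFS3 by -0.31 and SDHA by -0.24, with no overlap in any of these genes. Of the 3 that rose, ATP5MC2 rose again at day 6. NDUFS4, an accessory subunit needed for a stable matrix arm, and UQCR11 rose by 0.20 and 0.16 at day 3 and did not pass at day 6. Without EED226 day 3 replicate 1 the day 3 count was 4 lower and 2 higher, without DMSO day 3 replicate 1 it was 6 lower and 1 higher, and with the mean of probe sets 7 lower and 0 higher.

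The difference between EED226 and DMSO was then compared between times. From day 2 to day 3 it changed for 0 of 75 subunits, against 0.511% of all genes. From day 3 to day 6 it became more negative for 26 and more positive for 0, against 10.7% and 14.2% of all genes. Among bright genes alone the shares were close: it became more negative for 37.1% of the 62 bright subunits and for 35.5% of the other bright genes. Complex I held 13 of the 26 and ATP synthase 8. UQCRC1 had the largest change, -0.75 ± 0.11, as its difference was -0.90 at day 6 and -0.15 at day 3. ATP5MC1 changed by -0.73 ± 0.11 and NDUFA6 by -0.63 ± 0.08. The F test over all 5 times passed for 36 subunits, against 40.6% of all genes: 19 in complex I, 1 in complex II, 3 in complex III, 3 in complex IV and 10 in ATP synthase.

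UQCRC1 did not pass before day 6. Its EED226 mean was 9.71 at 8 h, 9.78 at day 1, 9.64 at day 2, 9.45 at day 3 and 8.57 at day 6. Its DMSO mean was 9.66, 9.71, 9.65, 9.60 and 9.47 at the same times, and it had 9.62 at 0 h. SDHA passed at day 3 as well, with EED226 means of 10.29 at day 1, 10.15 at day 2, 10.01 at day 3 and 9.51 at day 6, beside DMSO means of 10.20, 10.24, 10.25 and 10.14. EED226 at day 6 was the lowest of all 11 group means for 51 of 75 subunits. The share of all genes with their lowest mean there was not computed. The median difference from 0 h over all genes was also lowest in this group, at -0.097.

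**Figure D5:**
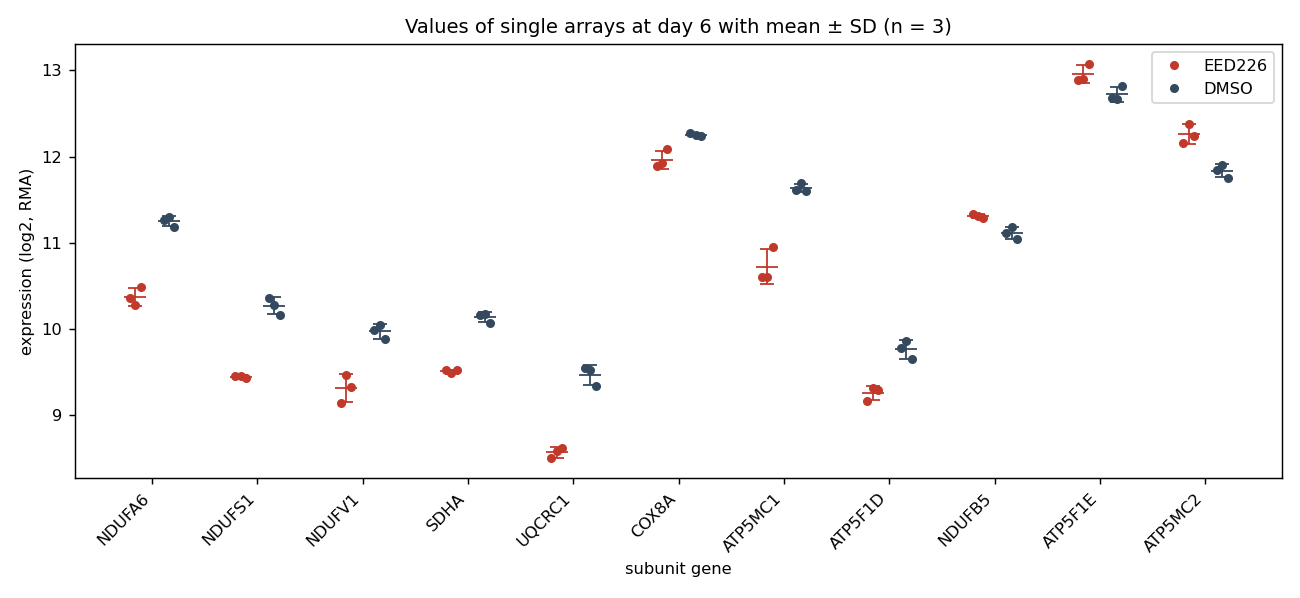
Levels (log2) on single arrays at day 6 for the 11 named subunits, EED226 in red left of DMSO in dark grey, with mean and SD (n = 3). EED226 and DMSO arrays do not overlap for any of them, with 8 lower and 3 higher. Apart from SDHA, these genes were taken from those that passed without overlap at day 6. For them the lack of overlap follows from the choice.

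Culture in DMSO alone moved the subunits less. Against 0 h none of the 75 passed at 8 h, day 1, day 2, day 3 or day 6, where 0.0%, 0.177%, 0.89%, 3.02% and 1.72% of all genes passed (limma). These comparisons share the 0 h arrays. An unadjusted p under 0.05 was found for 0, 1, 3, 7 and 9 subunits, and other settings gave at most 3 calls at a time. The median difference was -0.06 at day 6, and 62 of 75 subunits were below their 0 h mean there. Their differences at day 6 ran from -0.27 to 0.21.

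Of the 84 genes taken by symbol, the widest changes at day 6 were in the 9 that encode no structural subunit. SDHAF3, an assembly factor of complex II, had 8.75, 8.93 and 9.01 with EED226 and 9.95, 9.82 and 10.25 with DMSO, a difference of -1.11 ± 0.16 without overlap. SDHAF4, another, rose by 0.53 ± 0.13, and its DMSO replicate 3 was far below the other DMSO arrays, at 6.14 beside 6.81 and 6.80. ATP5IF1, which stops ATP synthase from running backwards, fell by 0.25 ± 0.06. NDUFV2-AS1, a non-coding gene, had 5.50, 5.77 and 5.47 with EED226 and 4.43, 4.12 and 4.13 with DMSO. This was a rise of 1.35 ± 0.16, while NDUFV2 fell. The dimmer probe set of NDUFV2-AS1 gave 0.19 and did not pass (adjusted p = 0.267, limma over all probe sets). SDHAF1, SDHAF2, COX7A2L and NDUFV1-DT did not pass at day 6.

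The subunits encoded in mitochondrial DNA also fell. The annotation gave 7 of 13 a probe set of their own, most of a type that may match several transcripts. At day 6, 7 of 7 were lower with a median of -0.61, beside 27.3% of all genes and 52.1% of other bright genes. At day 3, 0 of 7 passed, beside 22.9% of all genes. ATP6, of ATP synthase, had a mean level of 11.46 ± 0.19 with EED226 and 12.48 ± 0.04 with DMSO (SD, n = 3), and ND2, of complex I, differed by -0.61 ± 0.09. Of 13 genes that maintain or transcribe mitochondrial DNA, 10 fell and 2 rose, beside 27.3% lower and 23.7% higher of all genes. TFB1M, a mitochondrial rRNA methyltransferase, differed by -0.86, and LRPPRC, which stabilises mitochondrial mRNA, by -0.80. TFAM, which packs and transcribes this DNA, fell by 1.21 ± 0.10.

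Genes that build the complexes were also read, beside the 27.3% lower and 23.7% higher of all genes at day 6, and the 52.1% and 27.2% of bright genes. Of 14 complex I assembly factors 10 fell and 1 rose at day 6, with a median of -0.43. NDUFAF4 differed by -1.12 ± 0.06 and NDUFAF6 by -1.24 ± 0.07, more than any complex I subunit. For complex III 4 of 6 fell, among them BCS1L, which inserts the iron-sulfur protein, by 0.72, and UQCC3 by 0.56. For complex IV 12 of 21 fell and 5 rose, with COX16 at -0.52 and COA7 at -0.76. For ATP synthase 1 of 3 fell and 1 rose: TMEM70, which helps build the c ring, fell by 0.84, and ATPAF2 rose by 0.73. In coenzyme Q synthesis 6 of 11 fell and 3 rose, with PDSS1, which makes its tail, at -1.22 and COQ3 at -1.15.

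Neighbouring steps of metabolism were read too, beside the same 27.3% lower of all genes and 52.1% lower of bright genes. Of 11 measured enzymes of the citric acid cycle 9 were lower and 0 higher at day 6, with IDH3A at -0.72 and IDH3B at -0.61. All 6 measured carriers and porins were lower, with VDAC1 at -0.69 and VDAC2 at -0.54. Of the supercomplex factors HIGD1A fell by 0.18, and HIGD2A, at -0.065, did not pass.

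Of 9 regulators of respiratory genes 6 were lower at day 6 and 0 higher, again beside 27.3% lower of all genes. NRF1 fell by 0.46 ± 0.11 with overlapping groups, and GABPA, at 0.013, did not pass. The coactivators PPARGC1B and PPRC1 fell by 0.69 and 0.93, and PPARGC1A, which was dim with a mean level of 3.18 with EED226 and 3.65 with DMSO, fell by 0.47. MYC, which drives growth and mitochondrial genes, had a mean level of 11.3 with EED226 and 11.8 with DMSO, a difference of -0.50 ± 0.06.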

How the data were processed

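RNA of 33 samples was labelled with a 3′ in vitro transcription kit and hybridised to Affymetrix arrays, per the labels' protocols. The authors deposited 1 table of log2 expression values per probe set, which the submitters' processing notes give as RMA, a background correction, quantile normalization and probe summary. The RMA version is not given in the sources used here. Medians of single arrays ran from 4.06 to 4.18. Upper quartiles at day 6 were less alike, with 6.70, 6.74 and 6.68 on the EED226 arrays and 6.53, 6.55 and 6.10 on the DMSO arrays. The number of arrays limits the precision. Of 54675 probe sets, 62 were controls, 41091 carried 1 gene symbol and 1801 several. A gene's value is that of its single-symbol probe set with the highest mean level across the 33 arrays. Dim genes were kept. Several probe sets existed for 43 subunits. The probe sets used for 41 subunits may match several transcripts.

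Differences were fitted with limma 3.58.1 in R 4.3.3 (lmFit and eBayes, 1 mean per group, 22 residual degrees of freedom, two-sided, Benjamini-Hochberg over 19775 genes, threshold 0.05). No p-value was adjusted over the members alone. The fit was tested on simulated data in which 200 of 19775 genes were changed at day 6. It recovered 58% of 100 changes of 0.5 and 99% of 100 changes of 1, with 13 false calls. Smaller changes were not simulated. Far fewer genes were changed there than were called at day 6, so the shares recovered in the data may differ. Groups and times came from the sample titles and the design text. Members, gene lists and tests were chosen with earlier results of these data known. Named genes are the complex II subunits, the complex IV isoforms with their common partners, up to 4 rises and 4 falls per complex at day 6 among genes that passed without overlap, 3 rises and 3 falls at other times, members with opposed probe sets, 2 genes of each list with the smallest p, and 6 regulators. Other subunits were named after their values were seen, as were CD3G, PPRC1 beside the coactivators and the printed sequences.

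Same-numbered EED226 and DMSO arrays had correlated deviations from their group means of 0.20 to 0.32 at 8 h, 0.11 to 0.36 at day 1 and 0.15 to 0.17 at day 2, but -0.01 to 0.23 at day 3 and 0.05 to 0.13 at day 6. The replicate number was a block only as an alternative. Other settings changed the normalization, the probe set rule, the filter, the variance model, the arrays and a covariate for RNA integrity.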

Additional observations from a re-analysis of the deposited data

Results flagged for a closer look

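The difference between EED226 and DMSO was larger in the negative direction at day 6 than at day 3 for 26 subunits, by a test of the difference of differences (limma, Benjamini-Hochberg over 19775 genes). It was so for 10.7% of all genes, and among bright genes for 37.1% of the 62 bright subunits and 35.5% of the others. Among the named subunits this change, day 6 minus day 3 on the log2 scale, was -0.63 for NDUFA6, -0.52 for NDUFV1, -0.50 for NDUFS1, -0.42 for NDUFV3 and -0.29 for NDUFS3 in complex I, and -0.38 for SDHA in complex II. In complex III it was -0.75 for UQCRC1 and -0.28 for UQCRC2, and in complex IV -0.26 for COX7B and -0.22 for COX5A. In ATP synthase it was -0.73 for ATP5MC1, -0.41 for ATP5F1B, -0.31 for ATP5MC3, -0.30 for ATP5F1D, -0.29 for ATP5F1C and -0.25 for ATP5PB. The ACTB difference between 3′ and 5′ probe sets was 3.50 to 4.14 on the EED226 arrays of day 6 and 3.26 to 3.74 on those of day 3, and 36 subunits passed with it as a covariate.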

How the results depend on the processing

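The day 6 count of 50 stayed between 40 and 54 in 10 other settings, between 43 and 50 without 1 array, and was 28 with only the arrays compared. The day 3 count of 14 was 7 with the mean of probe sets, 4 with only the arrays compared and 6 to 11 without 1 array. The day 2 count of 1 was 2 with a renewed quantile normalization, the replicate block or the ACTB covariate, 3 with only genes above the median level, 4 with trended robust eBayes or array weights, 0 with the probe sets of 1 transcript or only the arrays compared, and 0 to 2 without 1 array. The change from day 3 to day 6 was called for 11 subunits, not 26, with only the arrays compared, and for 24 to 32 without 1 array. The change from day 2 to day 3 was called for 1 with array weights. For DMSO against 0 h the counts of 0 became 1 at day 1 with only genes above the median level or trended robust eBayes. At day 3 they became 1 with a renewed quantile normalization, the mean of probe sets, the probe sets of 1 transcript, array weights, the replicate block or the ACTB covariate, 2 with only genes above the median level or trended robust eBayes, and 0 to 1 without 1 array. At day 6 they became 1 with the mean of probe sets, 2 with the probe sets of 1 transcript or only genes above the median level, 3 with trended robust eBayes and 0 to 2 without 1 array. Fits with fewer arrays have fewer degrees of freedom and take the spread from the arrays left in. The cause of a changed count was not tested for any setting. The replicate block changed no other count by over 1.5 times. The F test count stayed between 33 and 49.

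Of 37 named subunits, 15 kept direction and side of the threshold at day 6 in every setting run, among them COX6A2, COX6B2 and COX7A1, which had not passed. Differences changed sign mostly with the probe set. With the mean of probe sets they were 0.16 for COX7B, 0.041 for UQCRC2, -0.50 for ATP5F1E, -0.24 for UQCR11, 0.15 for ATP5PB and 0.24 for NDUFB4. With the probe sets of 1 transcript, which are mostly dim here, they were -0.031 for SDHC, 0.43 for COX4I1, -0.42 for ATP5MC2, -0.59 for UQCR11, 0.81 for ATP5F1C, 0.43 for ATP5MG, 0.61 for ATP5PB and 0.62 for NDUFB4. With the ACTB covariate they were -0.020 for COX7A2, -0.023 for NDUFS4 and -0.0064 for UQCR11, and without 1 array COX7A2 ranged from -0.0020 (without EED226 replicate 3) to 0.080. At day 6, 8 subunits had probe sets that passed in opposite directions: ATP5F1C, ATP5F1E, ATP5MC3, ATP5MG, ATP5PB, COX4I1, NDUFB4 and UQCRC2.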
